A study of Mus musculus with 8 samples.

Results

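The genes described here are 46 genes of DNA replication and mitosis, taken by symbol from a table of 23420 genes counted in C2C12 cells, a mouse myoblast line. They were not chosen by a measured value. Of the 46, 21 act in or just before S phase (cyclin E and its kinase, origin licensing, the MCM helicase, the replication fork and nucleotide supply) and 25 act in mitosis (mitotic cyclins and kinases, the spindle checkpoint, the spindle, centromeres and chromosomes). All 46 were found, and all 46 passed the filter on low counts that left 13167 genes for testing. The cells were WT or overexpressed AUF1, an RNA-binding protein encoded by Hnrnpd, and all had been grown in 10% FBS and then held for 48 h in differentiation medium with 2% horse serum. Total RNA and RNA of heavy polysomes, the mRNAs that carry many ribosomes, were sequenced from both genotypes, which gave WT total, AUF1 total, WT polysome and AUF1 polysome groups of 2 libraries each. The libraries titled High were read as the polysome libraries. The labels name no control vector for the WT cells and do not describe the AUF1 cells as clonal or pooled, so AUF1 and other differences between the lines cannot be told apart. Nor do they tie replicates 1 and 2 to separate cultures. All p-values here therefore set a difference against the variation among these particular libraries, and that variation may be technical.

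Proliferating myoblasts pass through repeated cell cycles and leave the cycle for good when they fuse into myotubes. Entry into S phase is driven by cyclin E with CDK2 and by E2F transcription factors, which switch on the genes of origin licensing, the MCM helicase and the deoxynucleotide enzymes. Genes of mitosis are switched on later, by B-MYB and FOXM1 acting through a promoter element called the CHR (cell cycle genes homology region) and through CCAAT boxes bound by NF-Y. In cells that stop dividing, RB family proteins and the DREAM complex hold both gene classes down, and p21, encoded by Cdkn1a, blocks the cyclin-dependent kinases. AUF1 binds AU-rich mRNAs and affects their decay and translation.

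Each library held 25281224 to 34917660 counts in genes, of which the 46 genes took 0.0969% to 0.153%. Levels are given as CPM, a gene's count relative to the TMM-scaled library total, with replicate 1 before replicate 2. Hnrnpd measured 64.2 and 99.6 CPM (WT) against 448 and 397 CPM (AUF1) in total RNA, and 106 and 131 against 549 and 427 CPM on polysomes. The AUF1 libraries were above the WT libraries in each fraction, as their labels say. The summed level of 7 markers of differentiating muscle was 3135 and 3849 CPM in WT total RNA and 24106 and 20762 CPM in AUF1 total RNA, of which Myog gave 537 and 596 against 1935 and 1916 CPM and Ckm 55.1 and 94.2 against 1741 and 1537 CPM. That of 5 myoblast markers was 1891 and 1579 against 5947 and 2933 CPM, most of it Des (1233 and 1153 against 4248 and 2506 CPM). Of the other myoblast markers, Myf5 was lower with AUF1 (20.7 and 46.2 against 13.2 and 25.7 CPM) and Myod1 overlapped (197 and 273 against 338 and 266 CPM). Counting all 5 myoblast markers, 4 were above WT in total RNA of replicate 1 and 3 in replicate 2. The summed level of 8 fibroblast markers was 404 and 68.8 CPM in WT total RNA and 25.4 and 14.2 CPM with AUF1, and it was 379, 77.2, 24.7 and 14.8 CPM in the same order on polysomes. The fibroblast list thus moved both with genotype and with replicate number, and its part in the results below was not tested. No marker of that list was at 0 in all libraries, and 6 of the 8 passed the filter. Of 5 osteoblast markers 1 passed the filter and 1 was at 0 in all libraries. Their sum was 67.5 and 105 against 51.3 and 77.5 CPM in total RNA and 113 and 110 against 85.2 and 88.1 CPM on polysomes, nearly all of it Runx2. Markers of adipocytes (4 genes) and immune cells (3 of 4 in the table) summed to at most 0.413 and 1.76 CPM in any library.

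The promoters of the S-phase and the mitotic genes differ in which sequence elements they hold, and a stretch from 160 bases before to 30 after the annotated start is printed for 3 S-phase and 4 mitotic genes that recur in the results. The sequences are RefSeq's (GRCm38.p6), 5′ to 3′ on the gene's strand. Capitals mark E2F letters (TTTCGCGC, TTTGGCGC or TTTCCCGC on either strand) in Mcm5, Mcm6 and Cdc6, and CHR letters (TTTGAA or TTTAAA) and CCAAT boxes on either strand in Ccnb2, Cdk1, Cdc20 and Aurka.
Mcm5 (chr8:75109349-75109538, plus strand): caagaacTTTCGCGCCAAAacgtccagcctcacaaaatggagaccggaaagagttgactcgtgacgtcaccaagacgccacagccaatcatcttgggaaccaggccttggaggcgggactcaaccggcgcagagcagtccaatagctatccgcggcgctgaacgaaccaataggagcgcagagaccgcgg
Mcm6 (chr1:128359676-128359865, minus strand): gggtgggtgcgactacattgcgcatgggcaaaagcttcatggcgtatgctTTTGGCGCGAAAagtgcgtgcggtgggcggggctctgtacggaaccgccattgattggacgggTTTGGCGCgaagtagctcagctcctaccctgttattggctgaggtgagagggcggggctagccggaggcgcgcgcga
Cdc6 (chr11:98907991-98908180, plus strand): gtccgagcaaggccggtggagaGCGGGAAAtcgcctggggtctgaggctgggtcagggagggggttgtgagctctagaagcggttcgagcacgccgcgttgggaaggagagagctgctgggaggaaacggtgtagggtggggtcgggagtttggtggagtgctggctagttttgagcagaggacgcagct
Ccnb2 (chr9:70421525-70421714, minus strand): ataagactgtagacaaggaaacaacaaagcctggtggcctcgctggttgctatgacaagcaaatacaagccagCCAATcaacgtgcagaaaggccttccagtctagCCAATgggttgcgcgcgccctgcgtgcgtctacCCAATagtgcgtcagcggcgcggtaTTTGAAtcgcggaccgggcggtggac
Cdk1 (chr10:69352883-69353072, minus strand): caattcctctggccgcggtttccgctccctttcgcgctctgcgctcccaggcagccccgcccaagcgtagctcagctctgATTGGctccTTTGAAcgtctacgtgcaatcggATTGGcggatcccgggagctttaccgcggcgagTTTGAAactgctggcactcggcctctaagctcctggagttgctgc
Cdc20 (chr4:118437314-118437503, minus strand): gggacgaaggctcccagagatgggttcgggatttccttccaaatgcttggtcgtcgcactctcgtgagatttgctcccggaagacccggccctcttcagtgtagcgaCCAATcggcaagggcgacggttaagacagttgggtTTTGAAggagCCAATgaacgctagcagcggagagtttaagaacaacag
Aurka (chr2:172370541-172370730, minus strand): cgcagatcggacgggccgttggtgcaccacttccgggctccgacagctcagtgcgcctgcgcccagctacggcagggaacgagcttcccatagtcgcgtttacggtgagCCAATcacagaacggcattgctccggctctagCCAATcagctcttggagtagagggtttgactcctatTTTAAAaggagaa

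RefSeq windows from 250 bases before to 50 after the start were found for 36 of the 46 genes, 17 S-phase (18 windows, 2 of them of Mcm7) and 19 mitotic. E2F letters lay in 8 of the 18 S-phase windows (44.4%), in 1 of the 19 mitotic windows (5.26%) and in 1.84% of all 32851 RefSeq windows, which cover 27025 genes. Over the 12501 windows of the genes tested here the share was 3.33%. The S-phase genes that held them were Cdk2, Cdc6, Cdt1, Mcm3, Mcm5, Mcm6, Mcm7 and Pola1, and the mitotic gene was Cdk1, whose match from 131 to 124 bases before the start is in small letters above. In Mcm6 the E2F letters occurred 3 times, 2 of the matches overlapping. CHR letters lay in 17 of 19 mitotic windows (89.5%), 4 of 18 S-phase windows (22.2%), 27.6% of all windows and 19.1% of those of genes tested. Within 40 bases of the start, CHR letters lay in 13 mitotic windows (68.4%), 2 S-phase windows (11.1%), 7.06% of all windows and 4.25% of those of genes tested. CCAAT letters lay in 17 mitotic windows (89.5%), 12 S-phase windows (66.7%), 37.4% of all windows and 37.6% of those of genes tested. A match says only that these letters are present, and windows of 1 gene are not independent.

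**Figure D1:**
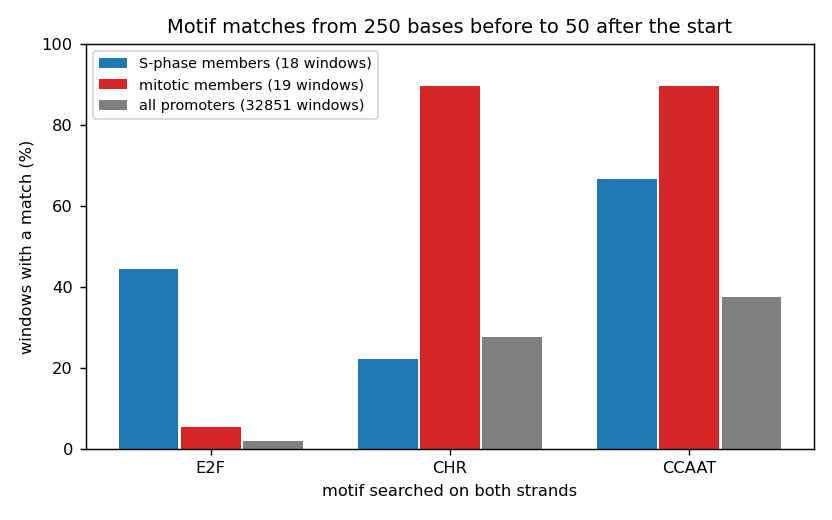
Share of promoter windows (y axis, percent) that hold E2F, CHR or CCAAT letters (x axis), for 18 windows of S-phase genes (blue), 19 windows of mitotic genes (red) and all 32851 RefSeq windows (grey). The E2F bar is highest for the S-phase genes at 44.4%, and the CHR bar for the mitotic genes at 89.5%.

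All 46 mRNAs were present after 48 h of low serum. Per kb of mRNA, the mean level over the 8 libraries was highest for Rrm2, the small subunit of ribonucleotide reductase (69.7 CPM per kb), Ube2c, the E2 enzyme of the anaphase-promoting complex (39.1), Cdk2 (35.9) and the survivin gene Birc5 (27.7). It was lowest for Pola1, the catalytic subunit of DNA polymerase alpha (1.24 CPM per kb), Cenpf (1.28), Cenpe (1.33), Ccne2 (1.40) and Ccnb1 (1.43). Summed levels of the S-phase genes ran from 557 CPM in AUF1 polysome replicate 2 to 1001 CPM in AUF1 total replicate 1. Those of the mitotic genes ran from 410 CPM in AUF1 polysome replicate 2 to 857 CPM in AUF1 polysome replicate 1. The lowest and the highest of the 8 libraries for the mitotic genes were therefore the replicates of 1 group.

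Set against each gene's own mean over the 8 libraries, the median mitotic gene stood at 0.49 (log2) in AUF1 total replicate 1 and at 0.68 in AUF1 polysome replicate 1. It stood at -0.27 and -0.46 in replicate 2 of the same groups. In the 4 WT libraries this median lay between -0.17 and 0.13. Of the 25 mitotic genes, 14 had their highest level in AUF1 polysome replicate 1 and 9 in AUF1 total replicate 1, and 10 had their lowest in AUF1 polysome replicate 2. For the S-phase genes the medians were 0.43 and 0.12 in replicate 1 and -0.15 and -0.32 in replicate 2 of the AUF1 total and polysome groups. In WT they followed the fraction, at 0.20 and 0.19 in total RNA and -0.16 and -0.20 on polysomes. The medians of the AUF1 replicates thus lay on either side of the WT medians of the same fraction.

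**Figure D2:**
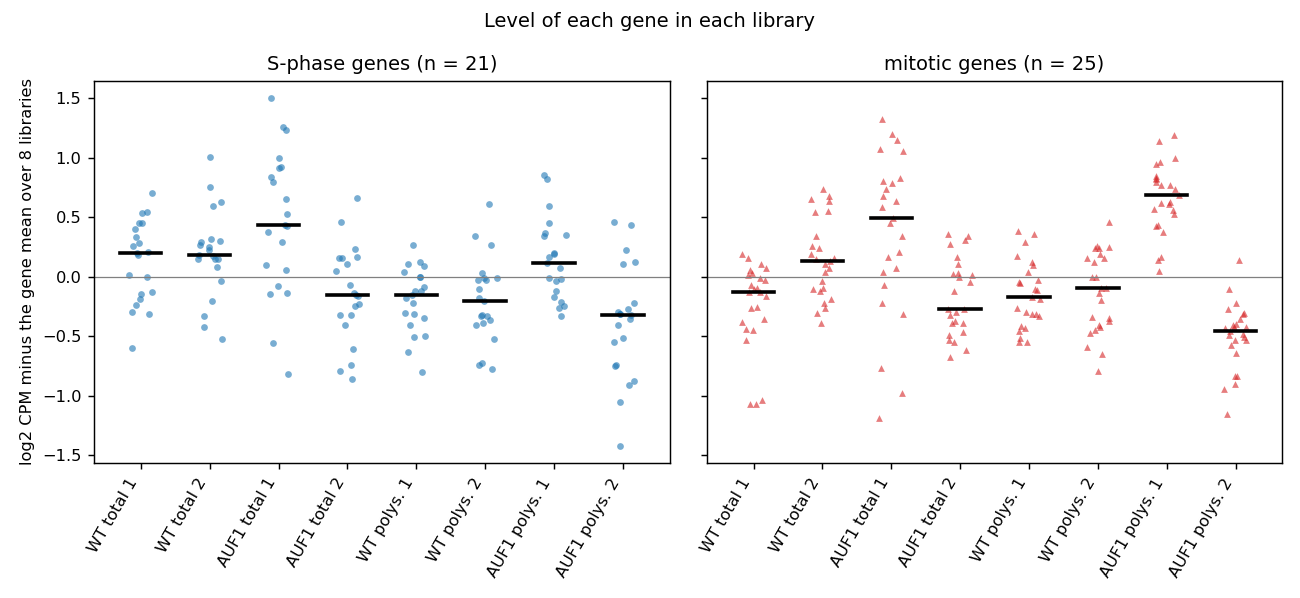
Level of each S-phase gene (left, 21 points per library) and mitotic gene (right, 25 points) in each of the 8 libraries (x axis), as log2 CPM minus the gene's mean over the 8 libraries (y axis), with the median as a bar. For the mitotic genes the medians of AUF1 total 1 and AUF1 polysome 1 (0.49 and 0.68) lie above, and those of AUF1 replicate 2 (-0.27 and -0.46) below, the 4 WT medians.

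The first comparison, between genotypes in total RNA, asks whether the mRNAs of replication and mitosis differ with AUF1 during differentiation. By edgeR's quasi-likelihood test 0 of the 46 genes passed an adjusted p under 0.05, where 134 of 13167 genes (1.02%) did, and DESeq2 also called 0 of them. At an unadjusted p under 0.05 stood 1 of the 46 genes, Cdk2, and 13.7% of all genes. The median log2 difference was -0.05 for the S-phase genes and 0.09 for the mitotic genes, and adjusted p-values ran from 0.192 to 0.991. On polysomes 0 of 46 passed by edgeR and by DESeq2, where 46 of all genes (0.349%) passed in edgeR, with 2 at an unadjusted p under 0.05 (Cdk2 and Rfc4, beside 14.1% of all genes). The medians there were 0.01 and 0.34. In bulk RNA, fewer cycling cells and less RNA per cycling cell cannot be told apart.

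Behind these small averages, AUF1 and WT differed in opposite directions in the replicate numbers. Within replicate 1, AUF1 total RNA was above WT for 24 of 25 mitotic genes (median log2 difference 0.60) and AUF1 polysome RNA for 25 of 25 (0.85). Within replicate 2 it was above WT for 1 of 25 in each fraction, with medians of -0.31 and -0.35. The S-phase genes were above WT in 17 of 21 cases in each fraction of replicate 1 (medians 0.21 and 0.33) and in 4 and 9 of 21 in replicate 2 (medians -0.46 and -0.12). Over all 13167 genes the median within-number difference lay between -0.03 and 0.00. Each of these is a difference of 1 library from 1 library and carries no test.

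In both fractions 23 mitotic genes and 9 S-phase genes were above WT in replicate 1 and below it in replicate 2, a pattern that 4.58% of all genes showed. Above WT in both numbers and both fractions were 5 of the 46 genes, namely Cdk2, Gmnn, Rfc4, Rrm1 and Bub1b, and below WT in all 4 was 1, Rrm2, beside 28.1% and 30.4% of all genes. Between the groups as a whole, AUF1 and WT libraries did not overlap for 4 S-phase genes above WT, 3 below it (Ccne2, Prim1 and Rrm2) and 1 mitotic gene above it in total RNA (22.5% of all genes above and 17.8% below). On polysomes they did not overlap for 7 S-phase genes above WT, 1 below it (E2f1) and 0 mitotic genes (23.6% and 21.3% of all genes). Genes of a phase are known to be expressed together, so these are not counts of independent events.

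The total RNA difference in replicate 1 depended on the scaling, and AUF1 total replicate 1 had the lowest TMM factor of the 8 libraries (0.818). Scaled to library totals alone, the median of all genes moved to -0.24 there, and 10 of 21 S-phase genes and 20 of 25 mitotic genes were above WT. With DESeq2's size factors these counts were 15 and 20 and the median of all genes was -0.12. On polysomes 25 of 25 mitotic genes stayed above WT in replicate 1 under all 3 scalings, and 1 of 25 in replicate 2 of both fractions. With library totals alone, S-phase genes above WT numbered 14 of 21 on polysomes of replicate 1, and 2 in total RNA and 5 on polysomes of replicate 2.

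**Figure D3:**
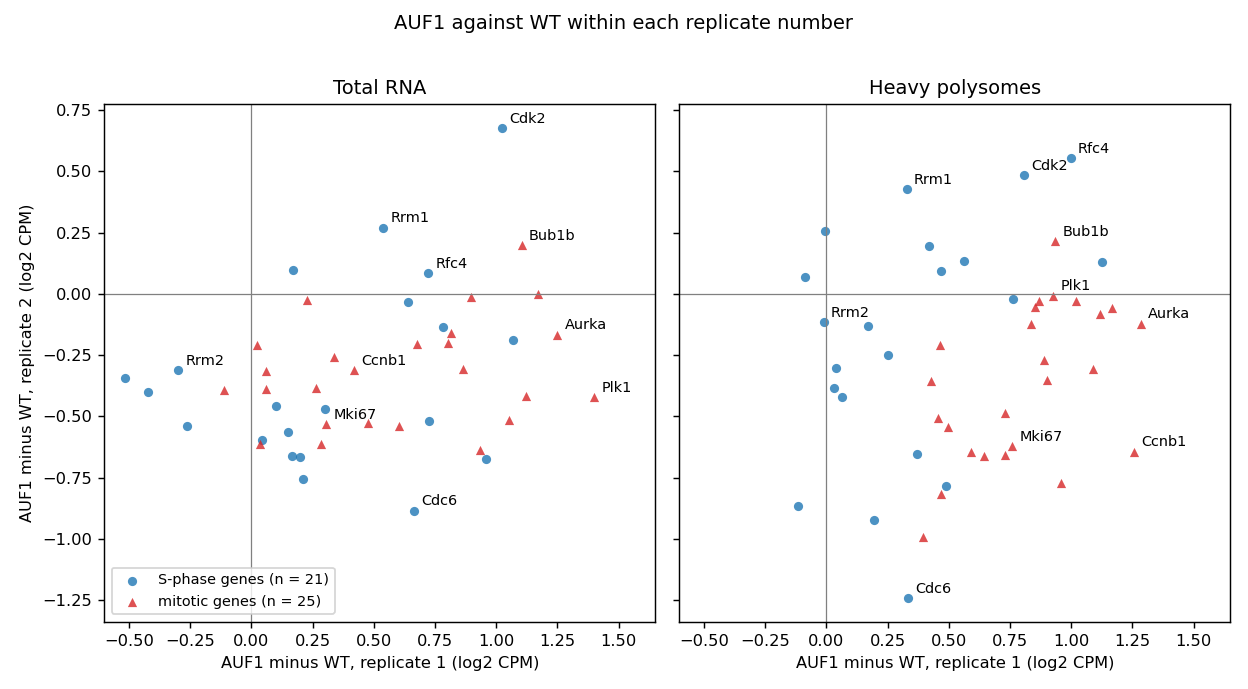
AUF1 minus WT (log2 CPM) in replicate 1 (x axis) against replicate 2 (y axis) for each S-phase gene (blue circles) and mitotic gene (red triangles), in total RNA (left) and on heavy polysomes (right). Most mitotic genes lie at the lower right (above WT in replicate 1, below it in replicate 2), 23 of 25 in both panels, while Cdk2, Rrm1, Rfc4 and Bub1b lie at the upper right in both.

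Among the S-phase genes, the kinase gene Cdk2 (mm10 chr10:128697939-128705031) gave the smallest p for a genotype difference. Total RNA of WT cells held 51.0 and 53.7 CPM of it and that of AUF1 cells 104 and 85.9 CPM. On polysomes WT had 60.6 and 75.9 CPM, and both AUF1 libraries had 106 CPM. Both AUF1 libraries lay above both WT libraries in each fraction, as was so for 22.5% and 23.6% of all genes. The log2 fold change in total RNA was 0.86 ± 0.25 (SE), with an edgeR adjusted p of 0.192. It passed only when the replicate number entered the model as a block (0.86 ± 0.23, edgeR adjusted p = 0.0398), a fit that called 13.1% of all genes. On polysomes it was 0.64 ± 0.25 (edgeR adjusted p = 0.319). Its partners did not share the pattern. Cyclin E1, Ccne1, had 15.7 and 13.0 CPM in WT and 33.1 and 11.4 CPM in AUF1 total RNA, so the AUF1 replicates lay on either side of WT. Cyclin E2, Ccne2, stood at 3.69 and 4.81 against 2.73 and 3.63 CPM in total RNA and at 3.27 and 3.97 against 7.21 and 4.35 CPM on polysomes, below WT in total RNA and above it on polysomes.

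E2f1, the S-phase transcription factor, was lower in replicate 2 than in replicate 1 of all 4 groups. It measured 64.1 and 38.2 CPM (WT) against 74.1 and 22.6 CPM (AUF1) in total RNA, and 42.2 and 39.0 against 38.9 and 21.3 CPM on polysomes. AUF1 was below WT in both polysome libraries. Of the licensing factors that load the helicase, Cdc6 measured 7.01 and 6.15 CPM (WT) against 11.1 and 3.29 CPM (AUF1) in total RNA. On polysomes it stood at 6.68 and 4.89 against 8.42 and 2.03 CPM, so that AUF1 replicate 1 was the highest and AUF1 replicate 2 the lowest in each fraction. Cdt1, the other loader, had 23.9 and 24.5 CPM in WT and 26.5 and 16.5 CPM in AUF1 total RNA. Geminin, Gmnn, which binds CDT1 and blocks relicensing, differed little in total RNA at 10.5 and 10.4 against 11.8 and 11.1 CPM, with no overlap between the groups.

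The 6 MCM genes encode the subunits of the replicative helicase. Within replicate 1 all 6 were above WT in total RNA, with log2 differences from 0.04 (Mcm4) to 0.96 (Mcm5), and within replicate 2 all 6 were below it, from -0.03 (Mcm7) to -0.68 (Mcm5). Mcm5 measured 26.5 and 21.9 CPM (WT) against 51.6 and 13.7 CPM (AUF1) in total RNA. Mcm6, the subunit with the highest mean level per kb, stood at 52.6 and 57.9 against 60.4 and 36.5 CPM. With library totals alone, the median of all genes in this pair moves to -0.24, a shift larger than the replicate 1 differences of Mcm4 and Mcm6 (0.04 and 0.20), whose direction therefore rests on the scaling. On polysomes the spread was smaller, with medians over the 6 genes of 0.12 in replicate 1 and -0.26 in replicate 2.

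At the fork, Rfc4, a subunit of the clamp loader, was above WT with AUF1 in all 4 pairs. It had 9.32 and 11.8 CPM (WT) and 15.4 and 12.5 CPM (AUF1) in total RNA, and 6.08 and 8.44 against 12.2 and 12.4 CPM on polysomes. The polysome difference was 0.76 ± 0.31 (SE, edgeR adjusted p = 0.345). The sliding clamp gene Pcna stood at 16.6 and 24.2 against 17.9 and 17.6 CPM in total RNA. Its polysome values were 16.8 and 19.5 in WT against 24.9 and 21.5 CPM with AUF1, which did not overlap. The large subunit of ribonucleotide reductase, Rrm1, had 109 and 103 CPM in WT and 158 and 125 CPM in AUF1 total RNA, while the small subunit, Rrm2, stood at 200 and 171 against 162 and 138 CPM. The subunits of this enzyme thus lay on opposite sides of WT in total RNA, neither past the threshold (log2 0.42 ± 0.25 and -0.31 ± 0.25, edgeR adjusted p = 0.549 and 0.694). Rrm2 values of the groups overlapped on polysomes (151 and 132 against 150 and 121 CPM).

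**Figure D4:**
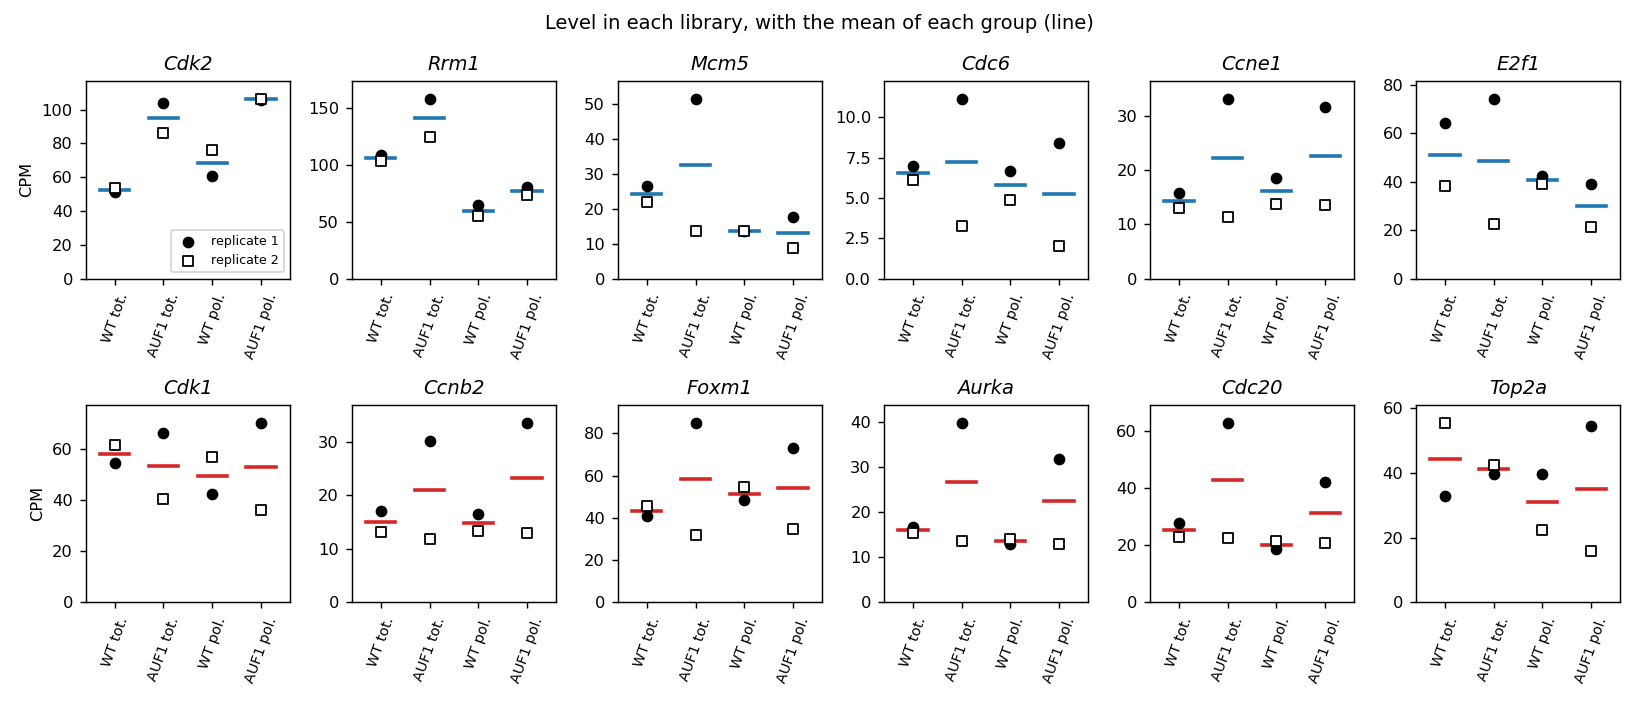
Level (CPM, each y axis from 0) of 6 S-phase genes (top row) and 6 mitotic genes (bottom row) in replicate 1 (filled circles) and replicate 2 (open squares) of the 4 groups, with the group mean as a line. In total RNA the AUF1 replicates lie on either side of the WT values for most genes (51.6 and 13.7 CPM for Mcm5 in total RNA), while Cdk2 lies above WT in both.

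Among the mitotic genes, Cdk1, the kinase that drives entry into mitosis, measured 54.5 and 61.8 CPM (WT) against 66.5 and 40.4 CPM (AUF1) in total RNA. On polysomes it stood at 42.4 and 56.9 against 70.5 and 36.1 CPM, so that the AUF1 replicates were the highest and the lowest of each fraction. Its partner cyclin B2, Ccnb2, stood at 17.1 and 13.1 against 30.1 and 11.7 CPM in total RNA and at 16.5 and 13.3 against 33.5 and 13.0 CPM on polysomes. Replicate 1 with AUF1 was above all the other libraries, and replicate 2 lay just below both WT libraries. Foxm1, the transcription factor of the mitotic program, stood at 40.9 and 45.8 against 85.0 and 32.0 CPM in total RNA and at 48.3 and 54.7 against 72.8 and 34.9 CPM on polysomes.

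The Polo and Aurora kinases build and correct the spindle. Plk1 gave the largest AUF1 minus WT difference within a number among the 46 genes, 1.40 in total RNA of replicate 1, where it stood at 15.0 CPM in WT and 39.7 CPM with AUF1. In replicate 2 it stood at 17.5 and 13.0 CPM, a difference of -0.42. Aurka had 16.7 and 15.3 CPM in WT and 39.9 and 13.7 CPM in AUF1 total RNA, and 13.0 and 14.2 against 31.8 and 13.0 CPM on polysomes. Aurkb, the kinase of the chromosomal passenger complex, differed by 1.12 in replicate 1 and by -0.42 in replicate 2 of total RNA.

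Of the spindle checkpoint genes, Bub1b, which encodes BUBR1, was the only mitotic gene above WT in all 4 pairs. It measured 16.4 and 18.1 CPM (WT) against 35.4 and 20.8 CPM (AUF1) in total RNA, and 11.7 and 9.65 against 22.5 and 11.2 CPM on polysomes. The groups did not overlap in total RNA and did on polysomes, with log2 fold changes of 0.70 ± 0.43 and 0.66 ± 0.44 (SE, edgeR adjusted p = 0.569 and 0.610). Bub1 stood at 4.54 and 6.81 against 5.32 and 6.70 CPM in total RNA and at 5.51 and 5.62 against 12.0 and 5.31 CPM on polysomes, where AUF1 replicate 1 stood alone.

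The anaphase-promoting complex marks mitotic proteins for destruction. Its activator Cdc20 had 27.9 and 22.7 CPM in WT and 62.8 and 22.7 CPM in AUF1 total RNA, and 18.7 and 21.4 against 41.9 and 20.6 CPM on polysomes. Replicate 2 showed a difference near 0 in total RNA (-0.0018 on the log2 scale). Ube2c stood at 26.9 and 29.6 against 50.1 and 29.3 CPM in total RNA. The spindle factor Tpx2, which activates Aurora A, stood at 28.1 and 35.1 against 49.1 and 30.6 CPM, and the kinesin gene Kif20a at 28.7 and 31.9 against 52.3 and 25.7 CPM. The centromeric histone gene Cenpa stood at 28.7 and 24.1 against 45.9 and 20.95 CPM. In all of these AUF1 replicate 1 was the highest of the 4 total libraries.

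Whether the AUF1 difference itself differed between the numbers was tested by adding a genotype-by-number term to the model, after the pattern had been seen. The fractions are the only repeats in that fit (2 residual degrees of freedom), and total and polysome RNA of a number may come from 1 culture. The term was negative for 20 of 21 S-phase genes and all 25 mitotic genes, with medians of -0.55 and -0.98. These signs restate the within-number differences given above and add no support to them. By edgeR 0 genes of the whole table (0.00%) passed an adjusted p under 0.05, and DESeq2 called 21 genes of the table and 0 of the 46. At an unadjusted p under 0.05 stood 17 of the 46 (3 S-phase and 14 mitotic) beside 4.33% of all genes. The smallest p belonged to Aurkb, at -1.64 ± 0.36 (SE, edgeR adjusted p = 0.608), followed by Aurka (-1.42 ± 0.37) and Cdc6 (-1.58 ± 0.41).

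Leaving out 1 library leaves 1 in its group, so the whole group drops out of this term. The counts that follow thus show the weight of a genotype and fraction pair, not of 1 library. The count at an unadjusted p under 0.05 was 28 without AUF1 total replicate 1 (5.20% of all genes in that fit), 9 without WT total replicate 1 (3.12%) and 6 without WT total replicate 2 (2.69%). It was 9 without WT polysome replicate 1 or 2 (2.03% and 2.06%). Without AUF1 total replicate 1 or 2, the number difference with AUF1 came from polysomes alone and that in WT from both fractions. The term was then -2.41 and -2.29 for Cenpe, -2.37 and -2.25 for Cenpf, and -2.39 and -2.28 for Mki67. In WT, Cenpe differed between the numbers by 1.71 in total RNA and by -0.10 on polysomes, so fraction is mixed into the term. These values therefore cannot tell whether the AUF1 difference itself differed between the numbers. Without AUF1 polysome replicate 1 or 2, AUF1 was represented by total RNA alone. The term was then -1.78 and -1.75 for Mcm5 and -1.76 and -1.73 for Plk1, with the same limit.

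The replicate number was then compared directly, as replicate 2 against replicate 1 over the 4 groups. By edgeR 3923 of 13167 genes (29.8%) passed, 1183 higher and 2740 lower in replicate 2 (8.98% and 20.8%). Of the 46 genes 4 passed, all lower in replicate 2. These were Ccnb2 (log2 -0.86 ± 0.24, SE), Ccne1 (-0.86 ± 0.24), E2f1 (-0.86 ± 0.25) and Cdc6 (-1.09 ± 0.34), with edgeR adjusted p-values from 0.0225 to 0.0351. The medians were -0.22 for the S-phase genes and -0.40 for the mitotic genes. Of the 6 fibroblast markers tested, 5 were also lower in replicate 2, and their part in these values was not tested. Ccne1, Cdc6 and Ccnb2 were lower in each replicate 2 library than in each replicate 1 library, as 16.5% of all genes were.

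Differences between the numbers were counted within each genotype and fraction. At least 1.5-fold lower in replicate 2 were 22 of 25 mitotic genes in AUF1 polysome RNA and 15 of 25 in AUF1 total RNA, against 1 and 0 in WT (24.9%, 28.8%, 25.4% and 23.4% of all genes in the same order). At least 1.5-fold higher in replicate 2 were 0 and 3 mitotic genes with AUF1 and 1 and 7 in WT (12.9%, 25.4%, 10.6% and 17.0% of all genes in the same order), with Cenpf (1.81), Cenpe (1.71) and Mki67 (1.62) at the top in WT total RNA. For the S-phase genes 7 and 11 of 21 were lower with AUF1 and 1 and 1 in WT, and 0 and 1 were higher with AUF1 and 1 and 2 in WT. The median mitotic gene differed by -1.17 and -0.72 between AUF1 replicates on polysomes and in total RNA, and by 0.03 and 0.22 between WT replicates. Without AUF1 total replicate 2, 0 of the 46 genes passed for the number (26.5% of all genes did), and 1 passed without AUF1 total replicate 1 (27.8%). Without AUF1 polysome replicates 1 and 2, 1 and 2 passed, all higher in replicate 2 (25.3% and 27.1%). Without WT polysome replicate 1 or 2, 12 and 13 passed, all lower (31.2% and 31.0%), and without WT total replicate 1, 2 did (19.1%). With no scaling beyond library totals 0 passed (35.1%).

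The number was also compared in each fraction alone. In the total libraries 16 of the 46 genes passed, 12 lower and 4 higher in replicate 2, where 37.9% of all genes passed, and in the polysome libraries 13 passed, all lower, where 40.0% did. Of these, 6 genes passed in both fractions (37.5% of the first set and 46.2% of the second), Ccnb2, Ccne1 and Cdc6 lower in both, and Cenpe, Cenpf and Mki67 in opposite directions. How many of all genes passed in both fractions was not counted, and the difference between the fractions was not tested. The 4 higher ones were Pola1, Cenpe, Cenpf and Mki67. Mki67, the proliferation marker Ki-67, measured 14.5 and 44.7 CPM (WT) against 17.9 and 30.9 CPM (AUF1) in total RNA, but 39.9 and 35.1 against 67.6 and 22.8 CPM on polysomes. Its log2 difference between the numbers was 1.20 in total RNA and -0.86 on polysomes (edgeR adjusted p = 9.68e-05 and 0.0181). Each of these fits held 4 libraries and left fewer residual degrees of freedom than the fit over all groups. By genotype, the Mki67 difference was 1.62 in WT and 0.78 with AUF1 in total RNA. On polysomes it was -0.19 in WT and -1.57 with AUF1. Cenpe, a kinetochore kinesin, gave 1.53 and -0.80, and Cenpf, a kinetochore protein, 1.68 and -0.75. Mki67, Cenpe and Cenpf have the longest mRNAs of the mitotic genes, at 10061, 7910 and 11130 nt.

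Polysome RNA was compared with total RNA to ask which mRNAs are found in heavy polysomes more or less than their abundance would give. By edgeR 0 genes of the whole table (0.00%) passed in either genotype, and DESeq2 called 0 of the 46 genes. At an unadjusted p under 0.05 stood 4 of the 46 in WT and 5 with AUF1, all S-phase genes and all lower on polysomes, beside 2.76% and 3.33% of all genes. In WT they were Rrm1, Mcm2, Mcm3 and Mcm6, and with AUF1 the same 4 and Mcm7. No term for a genotype difference in polysome loading passed for any gene in edgeR (0.00%) or for the 46 genes in DESeq2, and 0 of the 46 reached an unadjusted p under 0.05 there, beside 0.122% of all genes.

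Below total RNA in all 4 pairs of libraries were 17 of the 46 genes (10 S-phase and 7 mitotic), beside 18.3% of all genes, and above it in all 4 were 4, Cdk2, Gmnn, Ccna2 and Ube2c, beside 15.5%. Rrm1 had 109, 103, 158 and 125 CPM in total RNA (WT, then AUF1) but 64.3, 54.9, 80.8 and 73.9 CPM on polysomes, with no overlap. Its log2 fold changes were -0.83 ± 0.25 in WT and -0.87 ± 0.25 with AUF1 (SE, edgeR adjusted p = 1 in both). Mcm3 stood at 32.6, 34.7, 53.9 and 24.2 CPM in total RNA and at 15.8, 13.0, 17.8 and 11.9 CPM on polysomes, with changes of -1.22 ± 0.44 and -1.39 ± 0.44. Mcm2 stood at 46.2, 41.2, 79.5 and 37.5 CPM in total RNA and at 21.7, 20.1, 29.0 and 23.0 CPM on polysomes. The median over the 6 MCM genes was -0.83 in WT and -0.99 with AUF1. Mcm4 was the exception in replicate 1, where total RNA held 20.5 and 21.1 CPM and polysomes 20.9 and 21.3 CPM (WT and AUF1). In replicate 2 it was lower on polysomes, at 34.3 and 22.7 against 15.7 and 12.0 CPM.

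The longest mRNAs differed between the numbers in their polysome level relative to total RNA. The 4 mRNAs over 6000 nt, Mad2l1, Cenpe, Mki67 and Cenpf, had a median polysome minus total difference of 1.28 in WT and 2.04 with AUF1 in replicate 1, and of -0.42 and -0.55 in replicate 2. Their median difference of replicate 2 from replicate 1 in WT was 1.67 in total RNA and -0.11 on polysomes. With AUF1 it was 1.06 and -1.46. Cenpe, Mki67 and Cenpf were above total RNA in replicate 1 and below it in replicate 2 of both genotypes, whereas Mad2l1, a checkpoint gene of 7557 nt, gave -0.06 and 0.18 in WT and 0.81 and 0.12 with AUF1. Over the 1508 genes of the table above that length the medians were 0.24 and 0.41, and -0.22 and -0.19. Top2a, the topoisomerase that separates sister chromosomes, has an mRNA of 5221 nt and stood at 32.8 and 39.5 CPM in total RNA and 39.7 and 54.4 CPM on polysomes in replicate 1 (WT and AUF1). In replicate 2 it stood at 55.4 and 42.5 CPM in total RNA and at 22.3 and 15.7 CPM on polysomes. Across the 46 genes, log2 length and the polysome difference correlated with Pearson's r of 0.44 and 0.42 in replicate 1 and of -0.43 and -0.51 in replicate 2 (WT and AUF1), and across 11987 genes with r of 0.23, 0.28, -0.24 and -0.24. These are descriptions over genes that share libraries, not tests. The part of mRNA length in the polysome and number results of the long mRNAs was not tested further, and the labels hold no RNA integrity values.

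**Figure D5:**
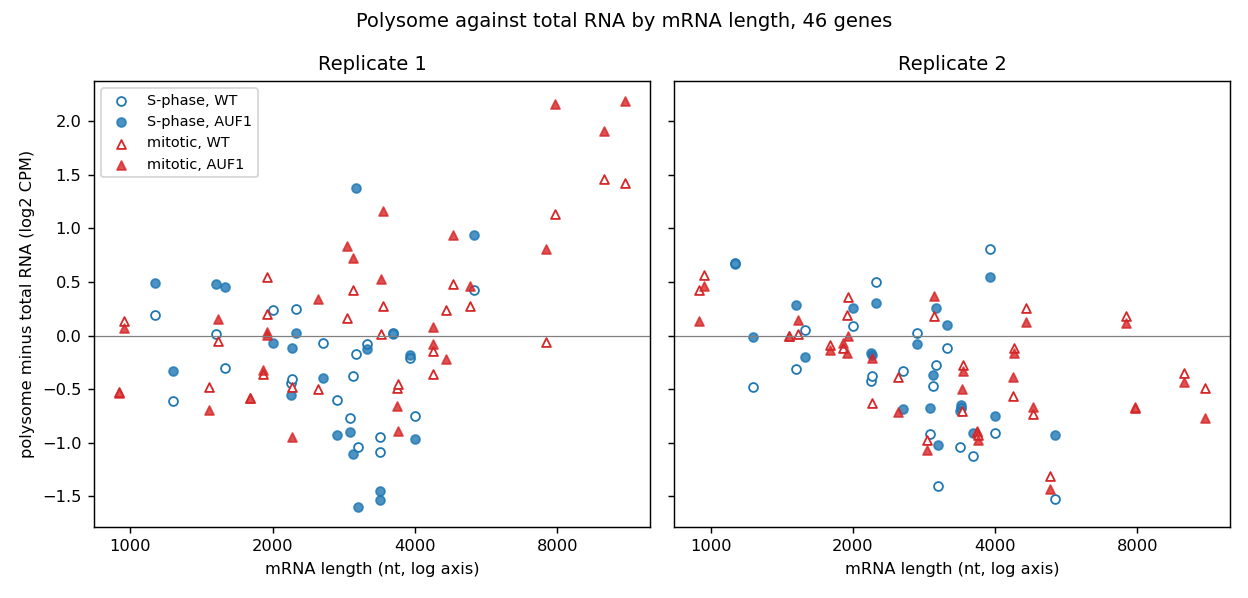
Polysome minus total RNA (log2 CPM, y axis) against mRNA length (nt, log axis) for the 46 genes in replicate 1 (left) and replicate 2 (right), S-phase genes as blue circles and mitotic genes as red triangles, open for WT and filled for AUF1. The 3 longest mRNAs (Cenpe, Mki67 and Cenpf) lie above 1 in replicate 1 and below 0 in replicate 2.

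Other genes of the pathway were taken from lists of replication and mitosis genes. Of 43 further replication genes, 0 passed for genotype in either fraction by edgeR, with 3 and 1 at an unadjusted p under 0.05. Of all genes 1.02% and 0.349% passed in total RNA and on polysomes, and 13.7% and 14.1% stood at that unadjusted p. AUF1 was above WT for 30 and 33 of 43 in total and polysome RNA of replicate 1 and for 9 and 15 in replicate 2. Of 50 further mitosis genes 0 passed as well (1 and 1 unadjusted), and AUF1 was above WT for 39 and 49 in replicate 1 and for 10 and 11 in replicate 2. Above WT in replicate 1 and below it in replicate 2 of both fractions were 14 of the 43 replication genes. The same held for 30 of the 50 mitosis genes and for 4.58% of all genes. E2f2, another E2F activator, gave the smallest p of the 43 for genotype in total RNA. It had 53.3 and 63.2 CPM in WT and 311 and 163 CPM in AUF1 total RNA, above WT in both numbers, with a log2 fold change of 2.02 ± 0.39 (SE, edgeR adjusted p = 0.0843, 0.00498 with the replicate block). DESeq2 called E2f2 in total RNA and on polysomes (DESeq2 adjusted p = 0.000379 and 0.00443). The share of all genes that DESeq2 called for genotype was not counted. For the replicate number DESeq2 called 37.1% of all genes, where edgeR called 29.8%. Genes above WT in both numbers of both fractions included E2f2, Cdc45, Gins4, Pola2, Pold2, Rpa2 and Fen1, beside 28.1% of all genes. Those below WT in both numbers of both fractions included Orc1, Orc6, Rpa3, Slbp and Tipin, beside 30.4% of all genes. The checkpoint gene Mad1l1 stood at 35.8 and 36.9 against 79.8 and 87.0 CPM (1.20 ± 0.33, edgeR adjusted p = 0.180, 0.0220 with the block). DESeq2 called Mad1l1 on polysomes (DESeq2 adjusted p = 0.0458). Orc6, a subunit of the origin recognition complex, stood at 85.9 and 94.0 against 47.4 and 58.3 CPM (-0.77 ± 0.25, edgeR adjusted p = 0.242, 0.0478 with the block). Bub3, a checkpoint gene with 101 and 99.5 against 151 and 120 CPM, differed by 0.43 ± 0.24 (edgeR adjusted p = 0.523). In none of E2f2, Mad1l1, Orc6 and Bub3 did the groups overlap in total RNA. Of all genes 22.5% lay above WT and 17.8% below it there without overlap. These genes were named for their small p in the same comparison.

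For the replicate number, 1 of the 43 replication genes was higher (Rpa3) and 3 lower in replicate 2 (Orc1, Pole and Fen1), and 3 of the 50 mitosis genes were lower (Kifc1, Cdca2 and Espl1). Of all genes 8.98% were higher and 20.8% lower. Pole, the catalytic subunit of DNA polymerase epsilon, changed by -1.13 ± 0.28 (SE, edgeR adjusted p = 0.0127), and Espl1, the separase that releases sister chromatids, by -0.99 ± 0.32 (0.0437, same test). In total RNA Pole measured 9.23 and 8.67 against 16.3 and 6.22 CPM, Espl1 13.97 and 13.98 against 36.2 and 11.0 CPM, and Cdca2 11.1 and 10.7 against 14.01 and 7.26 CPM, so that AUF1 replicate 1 was the highest and AUF1 replicate 2 the lowest for each. The flap endonuclease gene Fen1 stood at 41.6 CPM in AUF1 total replicate 1 and between 17.9 and 23.3 CPM in the other 3 total libraries.

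Among 18 genes that restrain the cell cycle, 1 passed for genotype in total RNA by edgeR, where 1.02% of all genes did. Cdkn1a (p21) measured 1327 and 1259 CPM (WT) against 5205 and 3680 CPM (AUF1), and rose by 1.78 ± 0.27 (SE, edgeR adjusted p = 0.0462). On polysomes it stood at 1593 and 1976 against 4546 and 5231 CPM (1.45 ± 0.26, edgeR adjusted p = 0.0817), and it passed there with the replicate block (edgeR adjusted p = 0.00691) and in DESeq2 (adjusted p = 0.000322). The Cdkn1a call in total RNA was lost on leaving out any single library (edgeR adjusted p from 0.0956 to 0.400) and in 3 other settings. It was above WT in replicate 1, where the mitotic genes were above WT, and in replicate 2, where they were below. Gas1, a growth arrest gene, measured 342 and 228 CPM (WT) against 86.6 and 60.9 CPM with AUF1, a log2 difference of -1.95 ± 0.40 (SE, edgeR adjusted p = 0.101, 0.000780 with the block). DESeq2 called Gas1 lower with AUF1 in total RNA and on polysomes (DESeq2 adjusted p = 0.000227 and 2.72e-05). The share of all genes beside the DESeq2 calls of Cdkn1a and Gas1 was not counted. For the replicate number, Rb1 (1.16 ± 0.27), Rbl2, E2f5 and Lin9 were higher and Btg2 (-1.06 ± 0.17) and Gas1 lower in replicate 2, with edgeR adjusted p-values from 0.00129 to 0.0392. Of all genes, 29.8% passed in that comparison, 8.98% higher and 20.8% lower. Btg2, an antiproliferative gene, had 130 and 85.1 against 187 and 80.3 CPM in total RNA and was lower in replicate 2 of both genotypes. The mRNA of the retinoblastoma protein, Rb1, measured 31.5 and 77.1 CPM (WT) against 50.8 and 231 CPM (AUF1) in total RNA.

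Some of the 46 genes share exons with a neighbour on the opposite strand, and no source names the strand setting of the counting, so reads of such a pair may not be separated. Ube2c overlaps Tnnc2, fast troponin C, which had 118 and 149 CPM in WT and 619 and 826 CPM in AUF1 total RNA. Cdc20 overlaps Elovl1, which had 200 and 28.8 CPM (WT) and 269 and 33.2 CPM (AUF1) in total RNA, high in replicate 1 and low in replicate 2. Cdk2 overlaps Pmel, which stood at no more than 0.426 CPM in any library. Rfc4 overlaps Eif4a2, and Ccna2 overlaps Exosc9. Their part in the values of these genes was not tested. Reads of Tyms and its separately listed pseudogene Tyms-ps may likewise be split.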

How the data were processed

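RNA of 8 libraries was measured as counts per gene. The deposited table holds raw counts, and per the submitters' processing notes cutadapt, Trimmomatic, Bowtie, STAR, SAMtools and the mm10 build were used. No source names tool versions, the counter or its strand setting. Per the labels' protocols, libraries came from 500 ng RNA. The titles number replicates 1 and 2, and the descriptions call the latter Rep3. The 5 summary lines were left out (reads in no gene were 6.04% to 7.23%).

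The counts were filtered with filterByExpr, scaled by TMM and fitted with edgeR 4.0.16 (R 4.3.3; DESeq2 1.42.0 as an alternative), with 1 coefficient per group and 4 residual degrees of freedom. The number comparison added replicate number to the model (3 degrees of freedom). Tests were two-sided, adjusted by Benjamini and Hochberg over 13167 genes, with a threshold of 0.05. Each SE was taken as the absolute log2 fold change divided by the root of its F statistic. Differences within a number are log2 CPM with a prior count of 2. The 1.5-fold limit was chosen after the data were seen. mRNA lengths are those of the principal, else longest, GENCODE M21 transcript. The script was tested on simulated data.

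The genes and lists were chosen with earlier results of these data known. By rule, values in every library are given for the gene with the highest mean CPM of each role, for the 3 S-phase and 3 mitotic genes with the smallest p in each genotype comparison and for the number, and for 2 genes per other list. Other genes shown that way were chosen after their values were seen. Alternatives were the replicate block, other scalings and filters, DESeq2 and leaving out each library.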

Additional observations from a re-analysis of the deposited data

How the results depend on the processing

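With the replicate block, 1 of the 46 genes (Cdk2) passed for genotype in total RNA, and the block changed no other call among them in the genotype, polysome and interaction comparisons. Deviations of same-numbered libraries from their group means correlated with r of 0.62 to 0.81 over 13167 genes, but 2 numbers are too few to establish pairs. The polysome against total median of the S-phase genes in WT was -0.34 without scaling beyond library totals, -0.30 within replicate 1, and -0.41 to -0.28 on leaving out single libraries. The mitotic median in WT was 0.017 within replicate 1, and the AUF1 against WT median of the S-phase genes on polysomes was 0.33 within replicate 1. For the replicate number, 0 of the 46 genes passed without scaling, 16 in total libraries alone, 13 in polysome libraries alone, and 0 to 13 on leaving out single libraries. In polysome libraries alone Cenpe (-0.80), Cenpf (-0.75) and Mki67 (-0.86) turned from higher to lower in replicate 2. Leaving out single libraries, the genotype-by-number term gave 6 to 28 genes at an unadjusted p under 0.05 and 0 to 3 past the adjusted threshold. Counts of S-phase genes above WT without scaling were 10 and 2 of 21 in total RNA of replicates 1 and 2, and 5 on polysomes of replicate 2. Requiring at least 10 counts in every library, 2 mitotic genes were above WT in total RNA of replicate 2. Where no cause is given, the cause was not tested. Over 58 named genes and 2494 gene and setting combinations, 2381 kept their side of the threshold, 56 gained the call, 54 lost it and 3 reversed. The 2381 include 226 values that were not called and changed sign. Each group holds 2 libraries, and how far depth limits these comparisons was not tested.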
